A study of Mus musculus with 3 samples.

Results

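Imprinted genes were read in pituitary cells of mice that carry, or lack, the transcription factor Tpit. From a list of 36 genes known to be imprinted in mice, the 31 with at least 50 counts summed over all clusters and libraries were kept, of 55293 gene symbols measured. The choice rested on total counts and not on any difference between genotypes. Igf2, with 52 counts, lay just inside the limit, and Phlda2, with 24, lay just outside it, followed by Mkrn3 with 19, Dio3 with 9, Magel2 with 7 and H19 with 2.

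Tpit is the transcription factor of pituitary Pomc cells and is encoded by Tbx19. The libraries were made from dissociated pituitaries of TpitWT, TpitHT and TpitKO mice, called WT, HT and KO here, with 1 library per genotype. What HT stands for, the construction of the Tpit allele, the age of the mice and their number per library are not given in the labels. Dead cells had been removed by sorting with propidium iodide, and the cells were processed with Chromium 3′ v3 reagents.

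An imprinted gene is transcribed mainly from the allele of one parent. The choice is set by DNA methylation laid down in the egg or the sperm, mostly at CpG dinucleotides, and several imprinted genes usually share a domain under a common control region. Many imprinted genes act on growth, and the pituitary, which makes growth hormone, is among the tissues where several of them are strongly transcribed.

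The sequences before the starts of 3 genes are shown because the results turn on these genes: Nnat and Dlk1, which were lower in most clusters of KO, and Plagl1, which was higher in KO in cluster 11, a cluster described further on. Each is the 250 bases before the start in RefSeq on GRCm38.p6, on the plus strand, with CpG in capitals. The start of Plagl1 used in that table lies inside the gene span of the deposited table (chr10:13060504-13131694). The windows are chr2:157559828-157560077 for Nnat, chr12:109452573-109452822 for Dlk1 and chr10:13090582-13090831 for Plagl1. A window was found for 26 of the 31 genes.
Nnat: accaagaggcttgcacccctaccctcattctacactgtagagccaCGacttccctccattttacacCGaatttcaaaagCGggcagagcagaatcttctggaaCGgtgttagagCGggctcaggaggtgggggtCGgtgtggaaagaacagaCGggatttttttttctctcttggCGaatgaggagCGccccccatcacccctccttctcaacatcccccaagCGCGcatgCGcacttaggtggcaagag
Dlk1: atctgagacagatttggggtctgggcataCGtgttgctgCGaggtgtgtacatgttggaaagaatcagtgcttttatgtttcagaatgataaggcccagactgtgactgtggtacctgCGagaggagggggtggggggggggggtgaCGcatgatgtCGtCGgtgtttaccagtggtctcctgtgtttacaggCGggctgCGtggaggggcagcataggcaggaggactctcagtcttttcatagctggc
Plagl1: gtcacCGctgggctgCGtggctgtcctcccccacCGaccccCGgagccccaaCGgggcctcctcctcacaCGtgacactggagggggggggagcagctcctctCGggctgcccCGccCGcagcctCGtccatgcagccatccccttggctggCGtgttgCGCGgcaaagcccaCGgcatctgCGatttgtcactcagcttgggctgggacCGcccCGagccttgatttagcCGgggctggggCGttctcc
The motif searched was CG, which reads the same on both strands. Nnat held 12 CpG, and 33.5% of the 32851 windows of the same length in the table held as many or more. Dlk1 held 8, a number reached by 43.0% of windows, and Plagl1 held 19, reached by 19.7%. The median window held 6 and 92.1% held at least 1. Methylation and the parental origin of the transcripts were not measured in these samples.

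Cell numbers were 11222 for WT, 12839 for HT and 13413 for KO, with means of 9561, 11869 and 9935 counts per cell. Tbx19 was at 17.6, 12.4 and 0.690 CPM, that is, counts scaled to 1e6 counts of the cells read, and Pomc at 21846, 22576 and 58.3 CPM. Of the 37474 cells, 115 barcodes occurred in more than one library. The authors' 21 clusters carry no names, so a cluster was called by a cell type only where at least 3 markers of that type were at least 2-fold above the rest. That number was set after the data had been seen. Among hormone-producing cells, cluster 0 was lactotrope-like, clusters 1 and 2 somatotrope-like, 14 thyrotrope-like, 3 gonadotrope-like, 7 melanotrope-like and 6 corticotrope-like. Among the others, cluster 10 was stem-cell-like, 9 endothelial-like, 15 fibroblast-like, 8 macrophage-like and 18 pituicyte-like. Cluster 4 was led by Prl and cluster 5 had Gh among its leading genes, and both kept their numbers, as did 11, 12, 13, 16 and 17. Clusters 12 and 16 were left unnamed although 4 of 5 erythroid markers in 12 and 6 of 6 lymphoid markers in 16 met the rule. Cluster 9 met it for 6 of 6 cycling and 4 of 5 erythroid markers as well as for endothelial ones. Its erythroid markers summed to 929, 14723 and 1579 CPM in WT, HT and KO. With 1 library per genotype, no difference could be set against a spread between animals, and no test was run. Intervals are at 95% and cover counting error only. Those of CPM and of ratios are too narrow, because counts come clustered in cells.

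The 31 genes together took 1.72% of the WT counts, 1.65% of the HT counts and 1.35% of the KO counts. Their levels differed widely between clusters. Because the clusters were made from expression, these levels are a description: Dlk1 was among the 10 leading genes of clusters 1 and 2, and Peg10 among those of cluster 4. A cluster was read only where it held at least 50 cells in a library. Of the 31 genes, 18 had the same leading cluster in WT and HT, and 9 had it in all 3 libraries. The last number is limited by which clusters could be read. In WT 6 of the 31 led in cluster 6 or 7, where KO had no cell, and cluster 2 held 17 KO cells. Clusters 5, 17 and 18 could be read in KO only.

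**Figure D1:**
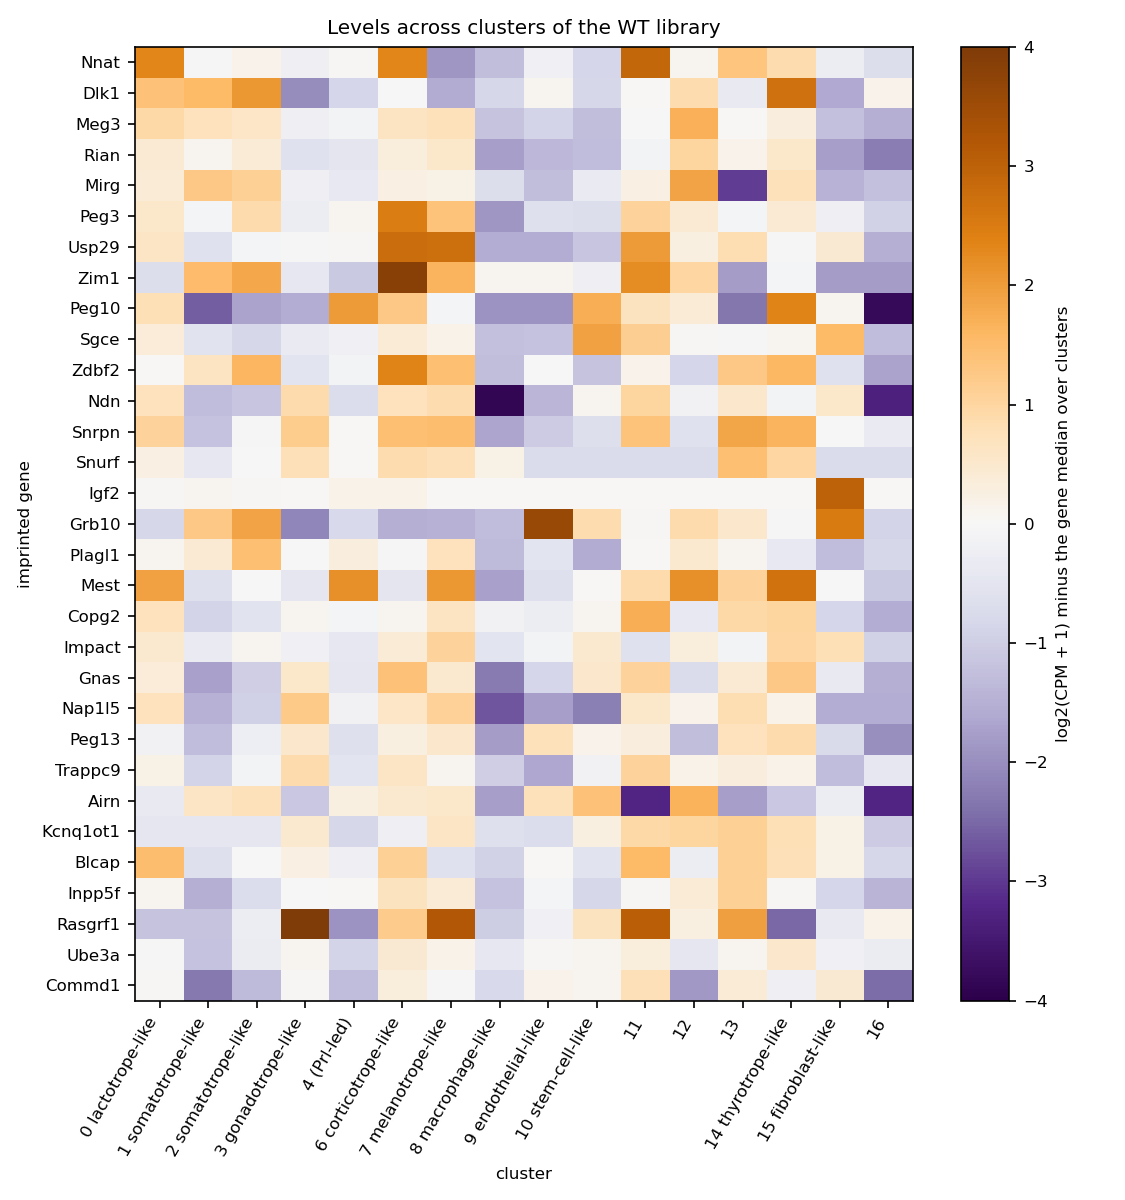
Levels of the 31 imprinted genes (rows) across the 16 clusters of the WT library with at least 50 cells (columns), as log2(CPM + 1) minus the median of the gene over clusters, with colours ending at 4 in either direction. Peg3, Usp29, Zim1 and Zdbf2 were highest in the corticotrope-like cluster 6, Grb10 in the endothelial-like cluster 9 and Rasgrf1 in the gonadotrope-like cluster 3.

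The Peg3 domain on chromosome 7 was most abundant in the clusters that KO lacks. Peg3, a paternally expressed zinc finger protein (chr7:6703892-6730431, minus strand), reached 2041 CPM (WT) and 1653 CPM (HT) in the corticotrope-like cluster 6. In the melanotrope-like cluster 7 it was at 935 and 787 CPM. In KO, where clusters 6 and 7 held no cell, its highest clusters were 11, at 655 CPM (635 to 675), and 5, at 651 CPM, which lies inside that interval. The neighbouring Usp29, of the ubiquitin-specific protease family, was at 126 and 144 CPM in cluster 6 and at 123 and 128 CPM in cluster 7. Zim1, a maternally expressed zinc finger gene of the same domain, was at 48.5 and 37.7 CPM in cluster 6, and its next highest cluster stood at 15.3 CPM in WT and 10.7 in HT. Zdbf2, a paternally expressed zinc finger gene on chromosome 1, was also highest in cluster 6, at 246 and 288 CPM. All 4 genes were thus highest in the same cluster in both libraries that have it.

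Other members led in other endocrine clusters. Gnas, which encodes the alpha subunit of the stimulatory G protein that couples hormone receptors to cyclic AMP, was highest in cluster 6 in WT, at 10399 CPM, and in HT, at 9277. It was also high in the thyrotrope-like cluster 14, at 9687, 7859 and 7382 CPM in WT, HT and KO. Rasgrf1, an exchange factor that activates Ras, was highest in the gonadotrope-like cluster 3 in every library, at 119, 132 and 178 CPM. It was counted in 56.3%, 73.2% and 75.8% of the cells of that cluster, which had means of 11207, 15808 and 12862 counts per cell. In the lactotrope-like cluster 0, which had means of 9013.5, 11496 and 9319.5 counts per cell, it was counted in 0.933%, 0.679% and 0.982%. Nap1l5, related to nucleosome assembly proteins, was at 722, 637 and 367 CPM in cluster 3 and at 651 and 638 CPM in cluster 7 of WT and HT. Mest, a member of the alpha/beta hydrolase fold family, was at 573, 545 and 689 CPM in cluster 14. In KO it reached 2271 CPM in the pituicyte-like cluster 18, which held 107 KO cells but 9 and 2 cells of WT and HT.

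Several members were highest outside the hormone-producing cells. Grb10, an adaptor of growth factor receptors, was highest in the endothelial-like cluster 9, at 81.6 CPM (62.4 to 105) for WT, 78.7 (63.7 to 96.1) for HT and 71.2 (60.8 to 82.8) for KO. These 3 intervals overlap. In the macrophage-like cluster 8 Grb10 had 2, 4 and 0 counts, and the 0 allows up to 1.55 CPM. Sgce, which encodes epsilon-sarcoglycan, was highest in the stem-cell-like cluster 10, at 136, 167 and 138 CPM, followed by the fibroblast-like cluster 15, at 104, 130 and 120 CPM. Igf2, the fetal growth factor, had 2, 3 and 29 counts in cluster 15, and the 29 counts of KO lay in 7 of 144 cells. KO over WT was 6.10 there, with an interval of 1.54 to 52.8.

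**Figure D2:**
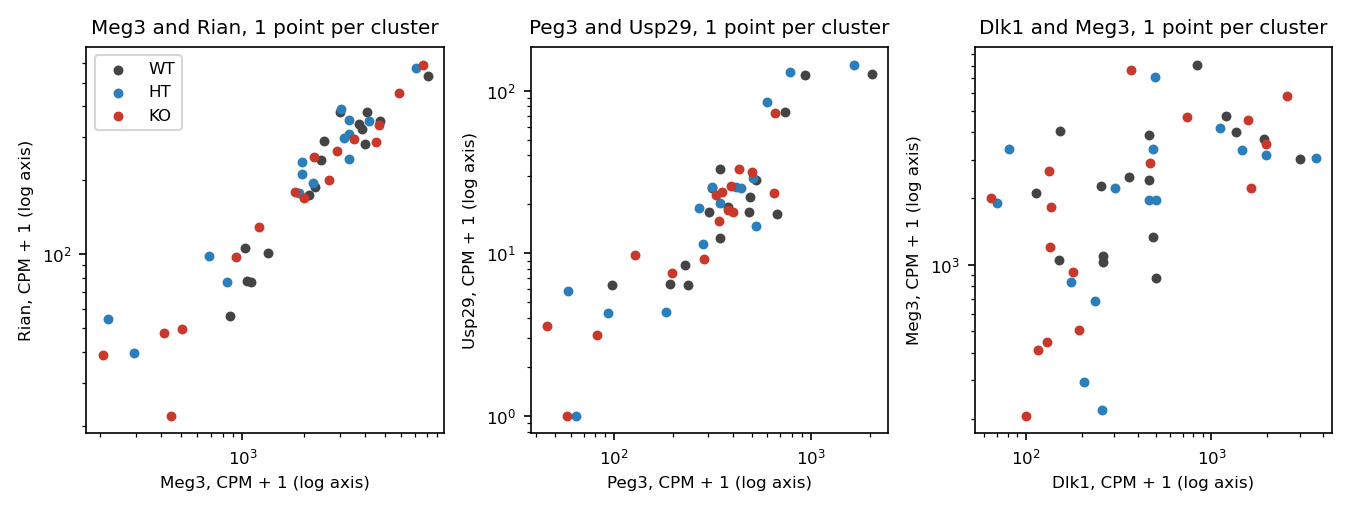
Levels of neighbouring imprinted genes, 1 point per cluster with at least 50 cells, for WT, HT and KO, on log axes as CPM + 1. Meg3 and Rian followed each other closely, with r of 0.958 in WT, Peg3 and Usp29 less closely, with r of 0.876, and Dlk1 and Meg3 loosely, with r of 0.469.

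Neighbours in a domain followed each other to different degrees across clusters. Meg3, Rian and Mirg are maternally expressed long noncoding RNAs of the Dlk1-Dio3 domain on chromosome 12, and Rian and Mirg host small nucleolar RNAs and microRNAs. Meg3 was highest in cluster 12, at 8085, 7096 and 7651 CPM, and Rian was highest there too, at 529, 572 and 591 CPM. Cluster 12 was led by Prl and hemoglobin genes and had 4 of 5 erythroid markers above the rest. The erythroid markers came from KO: they summed to 0, 1.90 and 2877.5 CPM in WT, HT and KO, with 0, 1 and 5 of 5 counted. The lactotrope markers, which include Prl, were high there in all 3 libraries, at 425150, 475810 and 499890 CPM. Across clusters the log2 levels of Meg3 and Rian had a Pearson r of 0.958 in WT over 16 clusters, 0.970 in HT over 15 and 0.962 in KO over 16. Peg3 and Usp29 had r of 0.876, 0.904 and 0.916. Dlk1, the paternally expressed gene of the domain of Meg3, had r with Meg3 of 0.469, 0.408 and 0.656. Nnat and Blcap, whose gene spans Nnat on the other strand, had r of 0.921, 0.820 and 0.616. Points of one library share its depth and free RNA, and these values carry no test. Whether counting used strand is not given in the sources used here, so reads of Nnat and Blcap, Mest and Copg2, and Airn and Igf2r cannot be fully told apart. Snrpn and Snurf overlap on one strand, as do Peg13 and Trappc9, and Commd1 and Commd1b.

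Nnat, which encodes neuronatin, a small membrane protein of the endoplasmic reticulum, was lower in KO in nearly every cluster (chr2:157560078-157562522, plus strand). In the lactotrope-like cluster 0 it was at 11576, 9925 and 4774 CPM in WT, HT and KO. In the somatotrope-like cluster 1 it was at 2194, 1782 and 824 CPM. In the thyrotrope-like cluster 14 it was at 4171, 3117 and 1602 CPM. In all 3 clusters HT lay between WT and KO and nearer to WT. WT over KO was 2.42 (2.41 to 2.44) in cluster 0, 2.66 (2.60 to 2.73) in cluster 1 and 2.60 (2.48 to 2.74) in cluster 14. Differences are further given as log2 ratios after adding 10 CPM to each value, for genes with at least 50 counts in the compared libraries together. Of 13 clusters with at least 50 cells in both WT and KO, Nnat was below 0 on this scale in 12 and at least 2-fold lower in 9. The share of all genes at least 2-fold lower in those 13 clusters ran from 0.0485% in cluster 4 to 1.51% in cluster 11. Against HT, Nnat was lower in 10 of 12 clusters, and at least 2-fold lower in 6, where between 0.0365% of all genes, in cluster 0, and 1.20%, in cluster 15, were.

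The size of the Nnat difference depended on the reference library in some clusters. In the gonadotrope-like cluster 3 Nnat was at 1996, 1090.3 and 822 CPM, a log2 ratio of -1.27 against WT and -0.40 against HT. In the stem-cell-like cluster 10 it was at 1263, 550.01 and 571 CPM, and the ratio went from -1.13 against WT to 0.05 against HT. There WT stood apart from the other libraries, while in clusters 0, 1 and 14 KO did. In cluster 4, led by Prl, the order of WT and HT turned, at 2383, 3161 and 1568 CPM. The exception to the lower KO values was cluster 11, at 16794, 16967 and 24705 CPM, where KO was 1.47-fold WT (1.43 to 1.51). Cluster 11 held 39.5% of the Nnat counts of KO but 4.75% of its counts of all genes. In the macrophage-like cluster 8 Nnat was at 958, 581 and 542 CPM, and the part of free RNA in values of that size was not tested.

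**Figure D3:**
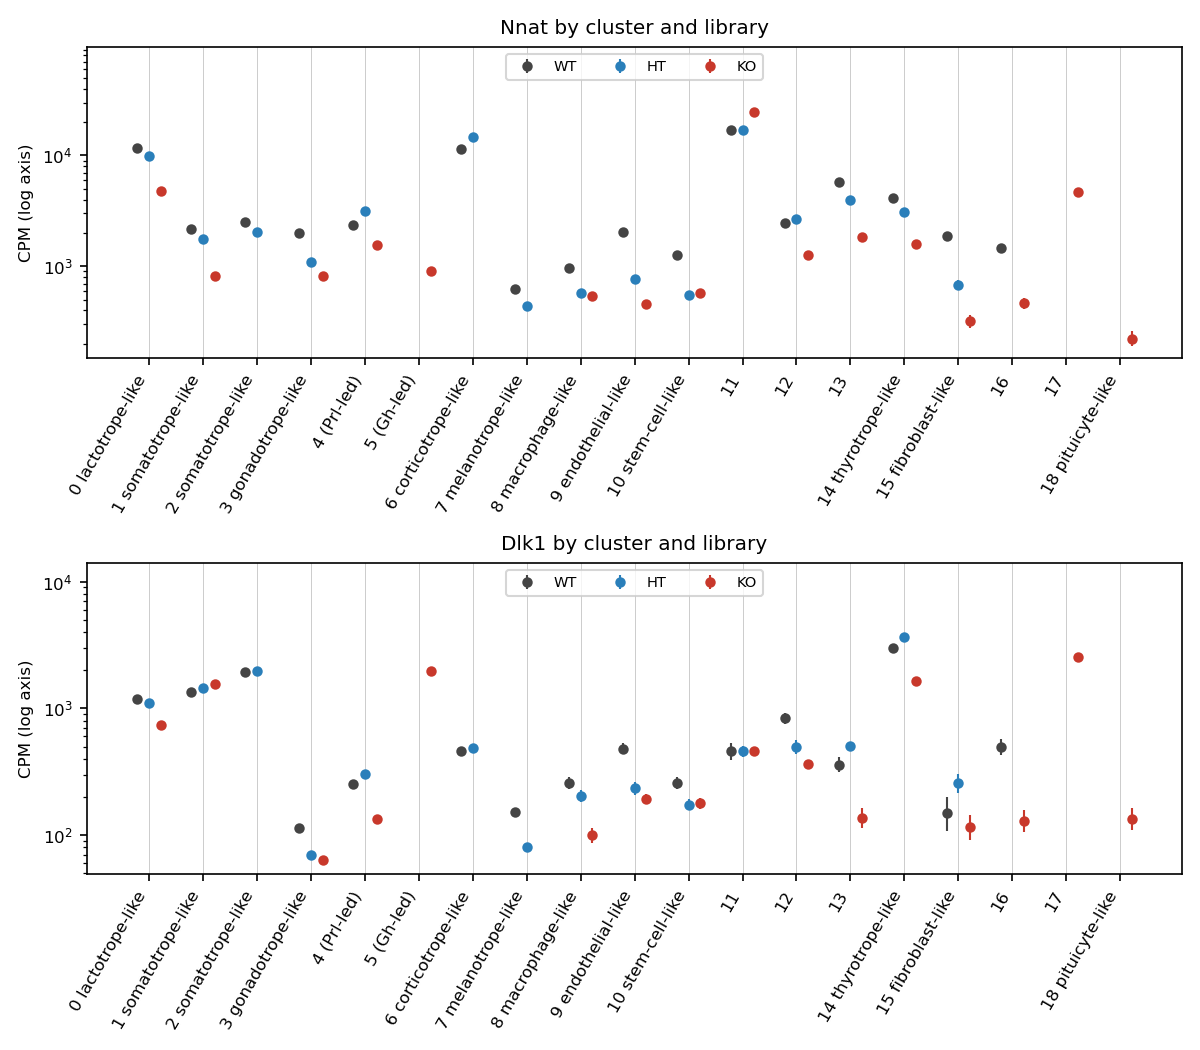
Nnat (upper panel) and Dlk1 (lower panel) in each cluster with at least 50 cells, in CPM on a log axis with exact Poisson intervals, for WT, HT and KO. The Nnat value of KO is below that of WT in every shared cluster but 11, whereas Dlk1 in cluster 1 was at 1351, 1461 and 1566 CPM.

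Dlk1, a transmembrane protein related to Notch ligands and known for its transcription in somatotropes, showed lower KO values in some cell types but not in somatotrope-like cells (chr12:109452823-109463336, plus strand). In the somatotrope-like cluster 1 it was at 1351, 1461 and 1566 CPM. Cluster 2 stood at 1920 and 1972 CPM for WT and HT, and cluster 5, which held most remaining Gh-rich cells of KO, was at 1963 CPM there. Over clusters 1, 2 and 5 together the log2 ratio of KO against WT was 0.11, and it was -0.12 when hormone and mitochondrial genes were left out of the totals. In the lactotrope-like cluster 0 it was at 1192, 1108 and 741 CPM. In cluster 4 it was at 254, 303 and 133 CPM, and in the thyrotrope-like cluster 14 at 3014, 3642 and 1640 CPM. In these 3 clusters KO was the lowest library. WT over KO was 1.61 (1.58 to 1.64) in cluster 0, 1.91 (1.80 to 2.02) in cluster 4 and 1.84 (1.74 to 1.94) in cluster 14. Against HT Dlk1 was at least 2-fold lower in cluster 4, with a log2 ratio of -1.13, and in cluster 14, with -1.15, where 0.0402% and 0.806% of all genes were. None of the 3 reached a log2 ratio of 1 in size against WT, although the sum of clusters 0 and 4 did, with a log2 ratio of -1.01, where 0.0907% of all genes were at least 2-fold lower. That value was -0.71 with both clusters weighted equally and -0.73 with the authors' scaled counts. Cluster 4, where Dlk1 is lower, held 1463 of the 4619 KO cells of the pair but 592 of 3913 WT cells. In cluster 13 Dlk1 was at 360, 501 and 136 CPM, with log2 ratios of -1.34 against WT and -1.80 against HT, where 0.897% and 0.647% of all genes were at least 2-fold lower. Over all 13 clusters Dlk1 was lower in 11 and at least 2-fold lower in 5, clusters 8, 9, 12, 13 and 16. The share of all genes at least 2-fold lower in these 5 ran from 0.737%, in cluster 8, to 1.28%, in cluster 16. Against HT Dlk1 was lower in 9 of 12 clusters and at least 2-fold lower in 4, clusters 4, 13, 14 and 15. Between 0.0402% of all genes, in cluster 4, and 1.20%, in cluster 15, were. Meg3, in the same domain, was at 4712, 4185 and 4677 CPM in cluster 0, a log2 ratio of -0.01.

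In cluster 11 Peg10, Plagl1 and Mest were at least 2-fold higher in KO than in WT. The cluster counted 53 WT, 107 HT and 871 KO cells and was led by Klk1, Cdkn1c, Rrad and Cck, with no cell type reaching 3 markers. Peg10, a retrotransposon-derived gene needed in the placenta, was at 21.4 (8.60 to 44.1), 19.7 (11.2 to 31.9) and 135 (127 to 145) CPM. Plagl1, a zinc finger transcription factor that can halt the cell cycle, was at 79.5 (51.9 to 116), 127 (103 to 153) and 249 (237 to 262) CPM. Mest was at 165 (124 to 215), 242 (209 to 278) and 466 (449 to 483) CPM. For all 3 genes the KO interval lay above those of WT and HT, which rested on 7 and 16 counts for Peg10. KO over WT was 6.33 (3.06 to 15.8) for Peg10, 3.13 (2.13 to 4.81) for Plagl1 and 2.82 (2.16 to 3.76) for Mest. The log2 ratios against WT were 2.21, 1.53 and 1.44, and against HT they were 2.29, 0.92 and 0.92, so that of these 3 only Peg10 passed 2-fold against both. Against HT 1.87% of all genes were at least 2-fold higher. Peg10 was counted in 11.3%, 8.41% and 31.7% of the cells of cluster 11. In the macrophage-like cluster 8 the shares were 0.651%, 0.265% and 3.12%. Means there were 3629.7, 4331 and 4644 counts per cell, against 6174, 7606 and 7272 in cluster 11. The part of free RNA in these shares was not tested.

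Of 26 imprinted genes with enough counts in cluster 11, 3 were at least 2-fold higher and 0 at least 2-fold lower against WT, where 4.07% of all genes were higher and 1.51% lower. Rasgrf1 was at 45.8, 19.7 and 77.0 CPM, and its log2 ratio was 0.64 against WT and 1.55 against HT. Ndn, which encodes the growth suppressor necdin, was at 186, 205 and 280 CPM. Dlk1 was at 458, 458 and 464 CPM and did not separate the libraries. The makeup of cluster 11 differed between libraries as well. Of its corticotrope markers 6, 5 and 5 of 6 had counts, with summed levels of 20199, 33665 and 278 CPM, and Tbx19 was at 61.1, 76.2 and 13.6 CPM. Gonadotrope markers summed to 12017, 8299 and 10769 CPM, with all 7 counted in each library. Their part in the results was not tested.

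**Figure D4:**
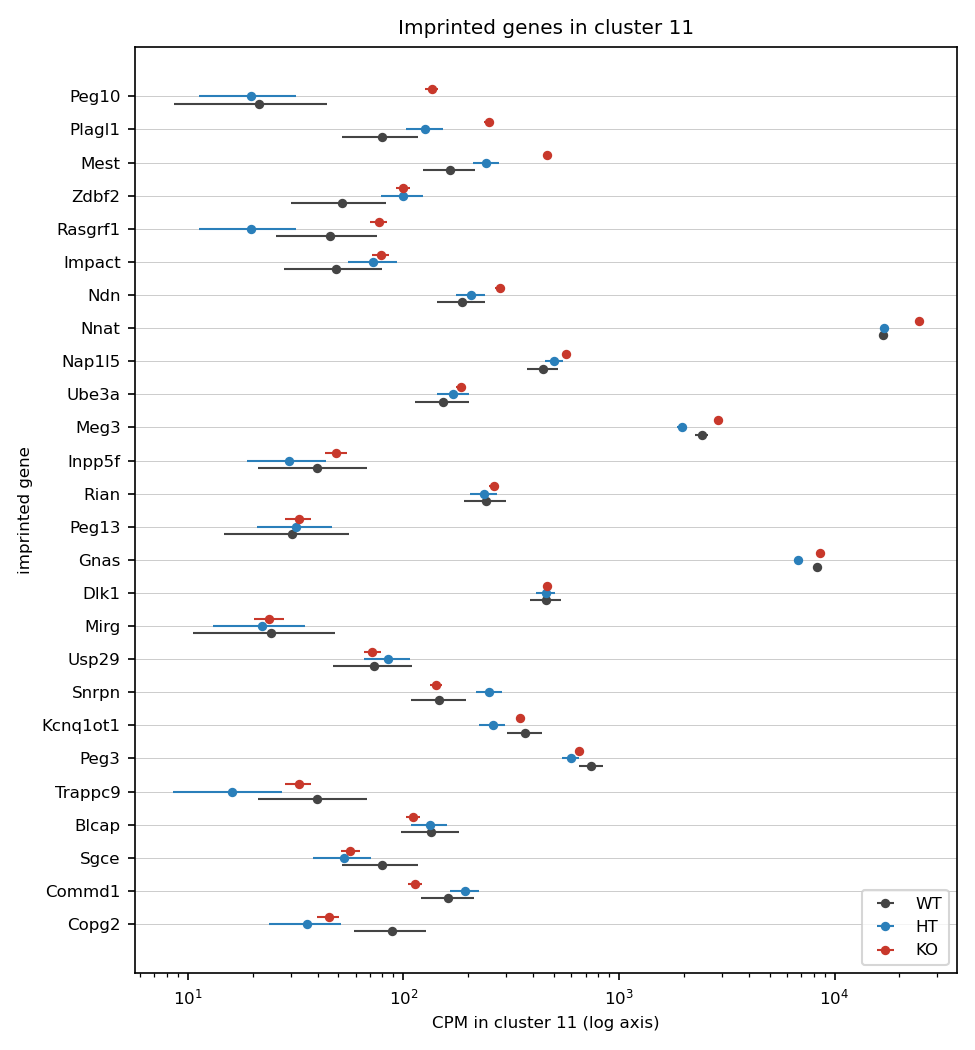
The 26 imprinted genes with at least 50 counts summed over WT and KO in cluster 11, ordered by the log2 ratio of KO against WT, in CPM on a log axis with exact Poisson intervals, for WT, HT and KO. Peg10, Plagl1 and Mest stand at the top, and the KO value of Peg10 lies at 135 CPM, far from 21.4 and 19.7.

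Smaller differences in the same direction were seen in hormone-producing clusters. In the somatotrope-like cluster 1 Mest was at 57.6, 49.5 and 123 CPM, with log2 ratios of 0.97 against WT and 1.16 against HT, where 0.179% of all genes were at least 2-fold higher. Ndn was at 37.1, 38.9 and 73.2 CPM, with log2 ratios of 0.82 and 0.77. Plagl1 was at 106, 84.0 and 155 CPM there. For these genes KO was the highest library, and none reached a log2 ratio of 1 against WT after adding 10 CPM. The plain ratio of CPM, KO over WT, was 2.13 for Mest. In cluster 1 the median log2 ratio of all genes was 0.09 against WT and 0.10 against HT. Gh, which takes most counts of that cluster, was at 680370, 684320 and 626620 CPM there in WT, HT and KO. The part of this shift in the differences was not tested. Peg10 was at 23.3, 28.5 and 38.8 CPM in cluster 0 and at 3.78, 3.61 and 13.6 CPM in cluster 3. Beside cluster 1, most KO cells rich in Gh lay in cluster 5, which held 2457 KO cells but 28 of WT and 24 of HT. Plagl1 was at 226 CPM in cluster 5 of KO and at 219 CPM in the somatotrope-like cluster 2 of WT.

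In the gonadotrope-like cluster 3 the difference in Nnat was accompanied by one in Nap1l5. Nap1l5 was at 722 (698 to 745), 637 (621 to 653) and 367 (359 to 375) CPM, with log2 ratios of -0.96 and -0.78. Rasgrf1 was at 119, 132 and 178 CPM, a log2 ratio of 0.54. Cluster 3 held 449, 630 and 1662 cells. Over all cells Rasgrf1 was the only member past 2-fold, at 11.6, 14.1 and 34.0 CPM and a log2 ratio of 1.03, where 0.165% of all genes were at least 2-fold higher and 0.115% lower. Cluster 3 gave 84.1% of the Rasgrf1 counts of KO and 48.4% of those of WT. With clusters weighted by the cell shares of WT, the log2 ratio over all cells was 0.27. Nnat over all cells was at 5557, 5413 and 2974 CPM, a log2 ratio of -0.90 that became -1.20 with the WT cell shares.

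In endothelial-like, macrophage-like and fibroblast-like cells several members were lower in KO than in WT, and the reference library changed many of these differences. In the endothelial-like cluster 9 Nnat was at 2044, 769 and 459 CPM. Peg3 was at 237, 91.8 and 81.0 CPM and Meg3 at 1333, 687 and 506 CPM. Dlk1 was at 482, 235 and 192 CPM, and Zdbf2, at 46.8, 16.4 and 7.67 CPM, rested on 35, 20 and 18 counts. WT was the highest library for all 5, and HT was nearer to KO. These 5 of 21 members with enough counts were at least 2-fold lower against WT, where 0.967% of all genes were. Against HT none was, where 0.377% of all genes were at least 2-fold lower. In HT against WT 4 of 19 were at least 2-fold lower, where 0.987% of all genes were. In the macrophage-like cluster 8 Meg3 was at 1096, 292 and 206 CPM and Dlk1 at 258, 205 and 99.7 CPM. These were the 2 of 17 members at least 2-fold lower, where 0.737% of all genes were. HT was nearer to KO for Meg3 and nearer to WT for Dlk1. Meg3 was counted in 24.1%, 23.9% and 20.9% of the cells of cluster 8, so its higher CPM in WT came from more counts per positive cell. In the fibroblast-like cluster 15, with 57, 99 and 144 cells, Nnat was at 1891, 683 and 319 CPM. Nnat, Meg3 and Peg3 were the 3 of 14 members at least 2-fold lower against WT, where 1.37% of all genes were. Against HT the log2 ratios of Meg3 and Peg3 turned to 0.88 and 0.91. Nnat and Dlk1 were the 2 of 15 at least 2-fold lower against HT, with log2 ratios of -1.07 and -1.09, where 1.20% of all genes were. Dlk1 was at 149, 257 and 116 CPM there.

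Some transcripts of hormone-producing cells were also highest in WT in these clusters, and others were not. In cluster 9 the somatotrope markers summed to 94545, 39623 and 26909 CPM, with 5, 5 and 4 of 7 counted, and Pomc was at 3212, 1295 and 10.7 CPM. In cluster 8 the somatotrope markers summed to 58948, 34520 and 14136 CPM, with 6, 5 and 4 of 7 counted. In cluster 15 the somatotrope markers summed to 27621, 30275 and 15781 CPM, with 4, 3 and 3 of 7 counted, and Pomc was at 24757, 2078 and 14.6 CPM. Lactotrope markers, 5 or 6 of 8 counted, were lowest in HT in all 3 clusters, at 10254, 7113 and 21396 CPM in cluster 8, 38234, 9752 and 24167 in cluster 9 and 33442, 5824 and 14261 in cluster 15. Gonadotrope markers, 5 to 7 of 7 counted, were highest in KO, at 2203, 2267 and 3842 CPM in cluster 8, 2124, 1968 and 3711 in cluster 9 and 2905, 2761 and 5656 in cluster 15. WT was the highest library for 16 of the 23 members with enough counts in cluster 9, 13 of 22 in cluster 8 and 11 of 17 in cluster 15. Of all genes with enough counts, WT was the highest library for 30.0%, 34.8% and 29.5% in the same clusters. The part of hormone-cell transcripts in these results was not tested.

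As a group, the members had median log2 ratios near those of all genes in clusters 0, 3 and 4 and below them in several others. In cluster 0 the median log2 ratio of 30 members was -0.01, against -0.03 over all genes, and 1 was at least 2-fold lower, Nnat, where 0.0699% of all genes were. In cluster 1 the median of 28 was 0.20, against 0.09, and Nnat was again the 1 lower, where 0.231% of all genes were. In cluster 3 the median of 27 was -0.03, against -0.02, and Nnat was the 1 lower, where 0.363% of all genes were. In cluster 4 the median of 26 was 0.08, against 0.07, and none passed 2-fold, where 0.0890% of all genes did in either direction. The 1 lower member was Nnat in cluster 10 (background 0.178%) and in cluster 14 (0.751%), and Dlk1 in cluster 12 (0.930%). The log2 ratio of Nnat in cluster 14 was -1.38 against WT and -0.96 against HT. That of Dlk1 in cluster 12 was -1.17 against WT, -0.98 with the authors' scaled counts and -0.43 against HT. In cluster 13 Nnat and Dlk1 were the 2 lower, with a background of 0.897%. In cluster 16, which mixed lymphoid, macrophage and cycling markers and held 17 HT cells, 4 of 8 members were lower, with a background of 1.28% lower and 12.4% higher: Nnat, Dlk1, Peg3 and Nap1l5. In the endothelial-like cluster 9 the median was -0.48, against 0.09 over all genes, in the fibroblast-like cluster 15 it was -0.43, against 0.08, and in the macrophage-like cluster 8 it was -0.30, against 0.02. In cluster 16 it was -0.97, against 0.35, and in clusters 13 and 14 it was -0.25 and -0.22, against -0.04 and -0.05. In cluster 10 it was -0.07, against 0.01, in cluster 12 -0.07, against -0.05, and in cluster 11 0.09, against 0.05. With HT as the reference the medians of clusters 8, 9 and 15 were -0.03, -0.13 and -0.12, against 0.01, 0.02 and 0.01 over all genes. Over all cells the median of 30 members was 0.00, against 0.02.

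**Figure D5:**
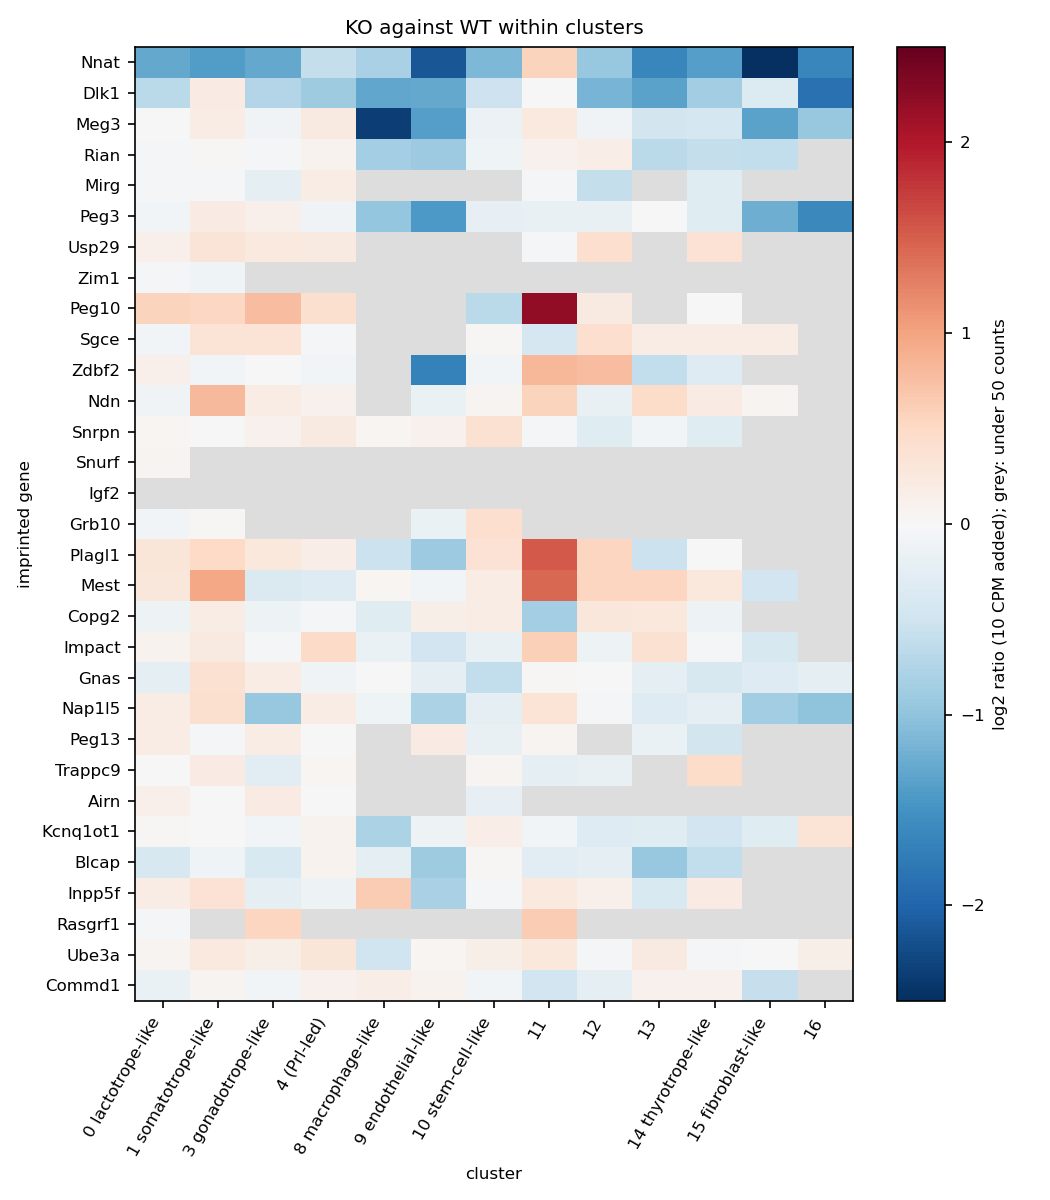
Log2 ratio of KO against WT, after adding 10 CPM, for the 31 imprinted genes (rows) in the 13 clusters with at least 50 cells in both libraries (columns), with grey where WT and KO together had under 50 counts. Nnat is below 0 in all of them but 11, where it is at 0.56, and Peg10 reaches 2.21 in cluster 11.

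Of the remaining members that reached 100 CPM in a WT cluster, Gnas, Impact, Kcnq1ot1, Blcap, Ube3a, Commd1, Rian, Snrpn, Sgce and Usp29 passed 2-fold in none of the clusters compared. Kcnq1ot1, the noncoding RNA that silences the Kcnq1 domain, had log2 ratios from -0.80 to 0.34 over 13 clusters. Ube3a, a ubiquitin ligase gene, ran from -0.49 to 0.31. Where measured, Impact ran from -0.48 to 0.59, Commd1 from -0.57 to 0.17, Snrpn from -0.30 to 0.38 and Blcap from -0.96 to 0.09. Gnas ran from -0.62, in the stem-cell-like cluster 10 at 5740, 5284 and 3725 CPM, to 0.39. The other 10 members, Mirg, Zim1, Snurf, Igf2, Grb10, Copg2, Peg13, Trappc9, Airn and Inpp5f, are given by range. Igf2 had too few counts for a log2 ratio in any of the clusters. The log2 ratios of the rest against WT, where measured, lay between -0.84, for Copg2 in cluster 11, and 0.63, for Inpp5f in cluster 8. Copg2 in cluster 11, at 88.6, 35.6 and 45.0 CPM, was at least 2-fold lower in HT than in WT, where 1.01% of all genes were.

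The corticotrope-like and melanotrope-like clusters could be compared between HT and WT only. In cluster 6 none of 28 members passed 2-fold in HT against WT, where 0.281% of all genes did in either direction, and in cluster 7 none of 28 did, where 0.290% of all genes did. The values furthest apart in cluster 6 were those of Plagl1, at 76.5 and 148 CPM, a log2 ratio of 0.87. In cluster 7 they were those of Dlk1, at 152 and 80.6 CPM, a log2 ratio of -0.84. Nnat in cluster 6 was at 11384 and 14812 CPM. In clusters 0 to 4 no member passed 2-fold between HT and WT either, where 0.0182%, 0.0586%, 0.0402%, 0.0484% and 0.0561% of all genes did, in the order of the clusters.

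A further list of 33 imprinted genes outside the members was read in the same way. Over all cells 26 of them had enough counts. In KO against WT 0 were at least 2-fold lower, where 0.115% of all genes were. Of the 26, 1 was at least 2-fold higher, where 0.165% of all genes were. That gene, Cdkn1c, an inhibitor of cyclin-dependent kinases from the Kcnq1 domain, was at 11.6, 16.97 and 47.7 CPM. It was a leading gene of cluster 11, where it was at 348, 614 and 610 CPM, and that cluster held more KO cells. In cluster 3 Cdkn1c was at 80.3, 54.4 and 57.1 CPM. Against HT it was at least 2-fold lower in KO in clusters 13 and 15, where 0.647% and 1.20% of all genes were. Against WT it passed 2-fold in neither of them. Dcn, which encodes decorin, was at 41.7, 62.3 and 89.0 CPM over all cells, and Pon3, a paraoxonase, at 14.2, 15.7 and 8.57 CPM. In cluster 0 Pon3 was at 27.0, 30.8 and 17.4 CPM. In clusters 8, 9 and 15, 0 of 7, 12 and 6 genes of this list were at least 2-fold lower against WT. There 0.737%, 0.967% and 1.37% of all genes were. The median log2 ratios of the list were 0.01, 0.04 and 0.14, against 0.02, 0.09 and 0.08 over all genes. In clusters 13 and 14 they were -0.20 and -0.15, against -0.04 and -0.05.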

How the data were processed

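Single-cell libraries of WT, HT and KO pituitaries were analysed, 1 per genotype. The authors deposited 1 sum of raw counts for every gene in each of 61 combinations of cluster and genotype. The values are whole numbers, and whether they count reads or molecules is not given in the sources used here. They also deposited scaled counts, recorded as signal and used as an alternative, and quantities of unit other: how many cells had a count, gene by gene, and the cluster and genotype of every cell barcode. DESeq2 with no version, Seurat 3.1, Cell Ranger 5 and the builds GRCm38 and mm10 appear, with no roles, in the submitters' processing notes. The aligner settings and filters are not given in the sources used here.

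Counts of the same symbol were added, which merged 110 of 55403 entries. CPM were computed per cluster and library with Python 3.11.15, pandas 2.3.3, numpy 2.4.6 and scipy 1.17.1. Log2 ratios were taken after adding 10 CPM, for genes with at least 50 counts in the libraries compared and clusters with at least 50 cells in each. A difference was counted past 2-fold in either direction, a rule of size and not a test. Poisson, Clopper-Pearson and conditional binomial intervals are exact, at 95%, and cover counting error only, and a count of 0 was given an upper limit of 3 counts. Doublets were not treated beyond the authors' steps, and no counts of single cells were used. The steps were tested on simulated counts.

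A member is described with values where it reached 100 CPM in a WT cluster, which 20 did, or passed 2-fold against WT and, with the same sign, a log2 difference of 0.5 against HT, which 7 did. In all, 21 met either. For Impact, Commd1, Snrpn, Blcap, Kcnq1ot1 and Ube3a the levels given are ranges of log2 ratios only. The others are given by ranges, with some single values for Zim1, Grb10, Igf2 and Copg2. Other values were named after they had been seen. The members, the further list and the markers were chosen with earlier results of these data known. Gene coordinates are those of the deposited table, and 35 of the 36 listed genes have identical coordinates in GENCODE M21.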

Additional observations from a re-analysis of the deposited data

Results flagged for a closer look

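In 4 members KO and WT differed in opposite directions in different clusters, with the same sign against HT. To be flagged, the log2 ratio against WT had to reach 0.5 in size each way and 1 in at least 1 direction. Against HT a much smaller size was enough. Smaller turns were not flagged, although most members were lower in some clusters and higher in others. The difference between the clusters was not tested, since each genotype had 1 library.

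Nnat had a log2 ratio of KO against WT of 0.557 in cluster 11 and of -2.53 in the fibroblast-like cluster 15. Peg10 had 2.21 in cluster 11 and -0.675 in the stem-cell-like cluster 10, where it rested on 67 counts in WT and 60 in KO. Zdbf2 had 0.777 in cluster 12, from 13 and 118 counts, and -1.69 in the endothelial-like cluster 9, from 35 and 18 counts. Plagl1 had 1.53 in cluster 11 and -0.902 in the endothelial-like cluster 9. In cluster 9 it was at 54.9, 30.3 and 24.7 CPM in WT, HT and KO, so HT was nearer to KO. Cluster 11 held 53 WT cells and 871 KO cells, and cluster 15 held 57 and 144. Whether these small WT samples of cells set the contrasts was not tested.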

How the results depend on the processing

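No paired analysis was possible because there was only 1 library of a genotype. Of 27 member values past 2-fold in KO against WT, 24 kept their sign under all alternatives run and 10 stayed past 2-fold under all of them. The 24 and the 10 both include Nnat, Dlk1, Peg3 and Nap1l5 in cluster 16, where HT could not be used as reference. The 3 that turned did so with HT as reference: Nnat in the stem-cell-like cluster 10 (0.0527), Meg3 in the fibroblast-like cluster 15 (0.878) and Peg3 there (0.908). Of 1649 single values under an alternative, 1200 lay inside the counting interval of the reported value. The alternative with no filter on counts leaves the ratio of a single gene unchanged. It is included in these counts, although it could not move any value or sign.

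With HT as reference, the number of members past 2-fold went to 0 over all cells, in cluster 3, in macrophage-like cells, in cluster 9, where the median moved to -0.127, and in cluster 10, and to 1 in clusters 0 and 4 together. It went to 2 in clusters 1, 2 and 5, with Mest higher. With 1 CPM added it went to 2 over all cells, in clusters 1, 2 and 5 and in cluster 3, 1 higher and 1 lower each, and to 9 lower in cluster 9. With totals that leave out hormone and mitochondrial genes it went to 1 in clusters 0 and 4, with a median of 0.043, and to 8 lower in cluster 9, and the median of clusters 1, 2 and 5 moved to -0.057. The authors' scaled counts gave 0 over all cells, with a median of -0.116, 1 in clusters 0 and 4, 8 lower in cluster 9, and a median of -0.034 in clusters 1, 2 and 5. Equal weights of clusters gave 0 over all cells and 1 in clusters 0 and 4, with a median of 0.027. Without clusters 6 and 7 the median over all cells was 0.101. With no filter on counts the number was 4 in cluster 13, 5 in cluster 15 and 8 in cluster 16, where the median was -0.23. More genes are then read, many of them with few counts. The cause of the other moves was not tested. The share of all genes past 2-fold is not given here for these alternatives. The numbers therefore show only how the count of members moved, and do not set the members against all genes.

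The median of all genes moved by more than 0.1 in clusters 1, 2 and 5 with 1 CPM added (to 0.18), in cluster 9 with the reduced totals (to -0.02), in cluster 12 with the authors' scaled counts (to 0.14) and with no filter (to 0.06), and in cluster 16 with the same alternatives (to 0.14 and 0.18). Equal weights could not be run where a class is 1 cluster, and HT not in cluster 16, with 17 cells. Depth limits the smaller clusters most: cluster 11 of WT had 327202 counts in all.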

Other observations

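The 5 listed genes below the minimum of counts were read at a few counts each. Mkrn3, a zinc finger gene of the Prader-Willi domain, had 6 of its 19 counts in the pituicyte-like cluster 18 of KO, in 5 of 107 cells. Phlda2, a growth-restraining gene of the placenta, had 6 and 4 counts in the stem-cell-like cluster 10 of HT and KO. Dio3, which inactivates thyroid hormone, had 3 and 2 counts in the fibroblast-like cluster 15 of HT and KO. H19, the noncoding neighbour of Igf2, had 2 counts in all, both in KO. Free RNA was not tested as a source of counts as few as these.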
